A study of Homo sapiens with 26 samples.

Results

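The 10 genes described here are heat-shock chaperones of the cytosol and the mitochondria: the cytosolic HSP90 pair HSP90AA1 and HSP90AB1, the cytosolic HSP70 proteins HSPA8, HSPA1A and HSPA1B, the HSP110 proteins HSPA4 and HSPH1, and the mitochondrial chaperones HSPA9, HSPD1 and HSPE1. They were chosen by gene symbol and make up 10 of the 19478 coding sequences (CDS) listed in every count table. The study used ribosome profiling, in which RNase digestion leaves the short mRNA fragments that ribosomes cover, and asked how kits that remove ribosomal RNA fragments change the footprints that remain. It holds 26 libraries from 3 human cell lines, all grown in serum-containing medium, and names no heat shock or other stress treatment in any of them.

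HEK293T, a human embryonic kidney line, gave 8 libraries of 15 to 35 nt fragments: 2 undepleted, 2 with legacy Ribo-Zero Gold, 2 with RiboCop and 2 with NEBNext. K562, a human myelogenous leukaemia line, gave 12 libraries of 20 to 34 nt fragments in a kit table: 2 undepleted, 2 with Qiagen FastSelect, 2 with riboPools, 2 with riboPools and a cold elution, and 4 with Ribo-Zero Plus, 1 each without additions, with formaldehyde, with oligos, and with both. K562 also gave 4 libraries in a size table, 1 NEBNext and 1 undepleted library for each of 20 to 34 and 20 to 60 nt. HEK293FT, another derivative of HEK293, gave 1 undepleted library and 1 depleted with custom oligos, both of 15 to 35 nt. Both size-table libraries titled undepleted carry a depletion label naming NEBNext, so their titles and labels conflict. They were grouped by title, and results that rest on them are given with that limit. The labels do not say that replicates came from separate cultures, so p-values measure only the spread between libraries, which may be technical.

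Library totals ran from 46858 to 5795774 CDS counts. K562 erythroid markers, such as globins, summed to 3639 to 12882 counts per 1000000 CDS counts of a library (CPM) in the K562 libraries and to at most 6.52 CPM in the HEK libraries. HEK293 markers summed to 247 to 658 CPM in the HEK libraries and to at most 60.1 CPM in K562. No difference beyond sampling noise was detected between the 2 RiboCop libraries (chi-square test over 4378 genes, chi-square over degrees of freedom 1.03, p = 0.103), whereas the 7 other replicate pairs differed (p = 0.047 or less). They were counted as 1 sample in the ratios, carry no SD, and a fit that sums them, chosen after seeing the data, is given beside the result it changes.

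Heat-shock proteins are molecular chaperones that help other proteins fold, keep them soluble and hand them to the degradation machinery. HSP70 proteins bind exposed hydrophobic stretches in cycles of ATP hydrolysis that J-domain proteins start and nucleotide exchange factors end, and HSP90 receives many of these clients, kinases and steroid receptors among them, with its own co-chaperones. Several families pair a form made in all growing cells with a form that heat shock factor 1 raises under stress, and cancer and transformed cell lines can make the stress forms without heat.

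HSP90AB1, HSPA8, HSPA4, HSPA9, HSPD1 and HSPE1 are treated here as constitutive, and HSP90AA1, HSPA1A, HSPA1B and HSPH1 as inducible. This split is an assumption from general knowledge of the families, and induction was not measured here. Medians and shares by class depend on it, on the placing of HSPD1 and HSPE1 among others. All 10 have a single row per table, with identifiers ENST00000216281.12 for HSP90AA1, ENST00000371554.2 for HSP90AB1, ENST00000534624.5 for HSPA8, ENST00000375651.6 for HSPA1A and ENST00000375650.4 for HSPA1B. The others are ENST00000304858.6 for HSPA4, ENST00000320027.9 for HSPH1, ENST00000297185.7 for HSPA9, ENST00000388968.7 for HSPD1 and ENST00000233893.9 for HSPE1. HSPA1A (chr6:31815464-31817946, + strand) and HSPA1B (chr6:31827735-31830255, + strand) are single-exon neighbours on GRCh38 in GENCODE 29, the only members without introns. HSPD1 (chr2:197486581-197500047, - strand) and HSPE1 (chr2:197499994-197503457, + strand) lie head to head, so their transcripts overlap at the start. The CDS is 1926 nt long in HSPA1A and in HSPA1B, 1941 nt in HSPA8, 2199 nt in HSP90AA1, 2175 nt in HSP90AB1 and 309 nt in HSPE1. G and C bases make up 63.1% of the HSPA1A CDS and 63% of the HSPA1B CDS, against 40.9 to 47.5% in the other members and a median of 52.8% over all CDS.

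HSPA1A and HSPA1B cannot be separated by most footprints. Their coding sequences differ at 4 bases, G1710T, G1860C, C1905T and A1920G, counted from 1 at the A of the start codon with the HSPA1A base first. Each difference is at the last base of a codon and leaves the amino acid as it is, so both genes encode the same protein. The stretches that hold them, from the GENCODE 29 transcripts on the + strand of GRCh38, are printed because only a footprint over a capital base can tell the copies apart.
HSPA1A chr6:31817452-31817480: gacaagaagaaggtGctggacaagtgtca
HSPA1B chr6:31829646-31829674: gacaagaagaaggtTctggacaagtgtca
HSPA1A chr6:31817602-31817630: ggtcccgggcctggGggcttcggggctca
HSPA1B chr6:31829796-31829824: ggtcccgggcctggCggcttcggggctca
HSPA1A chr6:31817647-31817682: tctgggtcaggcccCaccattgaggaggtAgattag
HSPA1B chr6:31829841-31829876: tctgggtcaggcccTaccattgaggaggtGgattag
The sequences are identical over the 1709 bases before the first difference, and 95.9% of the 28-base windows of HSPA1A also occur in HSPA1B. The authors' handling of reads that fit both is not given in the sources used here. Both rows were nevertheless filled to a like extent, with HSPA1A holding 43.1 to 57% of the pair's counts across the 26 libraries. Their sum is therefore the safer quantity, and it is given beside the results of the single copies.

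Other members share sequence too. Most of the 28-base windows also occur in transcripts of other genes, mainly pseudogenes, for HSP90AA1 (62.8%), HSP90AB1 (54.9%), HSPA8 (57.9%) and HSPD1 (71.8%), against 28.5% for HSPA9 and none for HSPA4 and HSPH1. For HSPE1 the share was 96.5%, and 50.4% of its windows also lie in the CDS of HSPE1-MOB4, a read-through of HSPE1 into the next gene with a row of its own. The levels of these genes depend on how the authors counted such reads and are uncertain to that extent.

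Heat shock factors bind inverted repeats of a short unit. The letters GAANNTTCNNGAA or TTCNNGAANNTTC, which are each other's reverse complement and stand for 3 adjoining units, were searched in the 250 bases before each RefSeq start site on GRCh38.p14. They occurred in 4 of the 14 windows of the members (28.6%), against 155 of all 35116 windows (0.441%). All 10 members matched a RefSeq promoter by symbol, some with more than 1 start site. Windows of HSP90AA1, HSP90AB1, HSPA8 and HSPD1 held the letters, and those of HSPA1A, HSPA1B, HSPA4, HSPH1, HSPA9 and HSPE1 did not hold them in this form. RefSeq start sites can differ from those of the counted transcripts. The site of HSPE1 lay within its counted transcript and that of HSPH1 upstream of it. The bases just before these transcripts were therefore not searched for these genes. Examples are printed because both an inducible and constitutive genes hold the letters, with the matching letters in capitals, in the direction of the gene.
HSP90AA1 chr14:102087114-102087138 (- strand): gggttcTTCCGGAAGGTTCgggagg
HSP90AB1 chr6:44247825-44247849 (+ strand): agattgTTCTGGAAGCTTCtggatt
HSPA8 chr11:123062173-123062197 (- strand): ggccccTTCTGGAAGGTTCtaagat
HSPD1 chr2:197500062-197500090 (- strand): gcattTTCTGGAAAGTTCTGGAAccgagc
The printed matches of HSP90AA1 and HSPA8 lie within their counted transcripts, and those of HSP90AB1 and HSPD1 lie before theirs. Another HSPA8 match, at chr11:123062348-123062372, lies before the counted transcript. A match describes the letters only, and binding was not measured here.

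Together the 10 genes took between 1.57 and 2.01% of all CDS counts in every library. In undepleted libraries the share was 1.95% ± 0.043 (SD, n = 2) in HEK293T, 1.76% ± 0.011 (SD, n = 2) in the K562 kit table and 1.91% in the single HEK293FT library. The similar totals were made up differently. The 4 inducible genes held 0.784% ± 0.024 (SD, n = 2) in HEK293T and 0.787% in HEK293FT, but 0.417% ± 0.00083 (SD, n = 2) in the K562 kit table. The 6 constitutive genes held 1.17% ± 0.019, 1.13% and 1.35% ± 0.0099 in the same order. A footprint count reflects both the amount of an mRNA and the ribosomes on it, and these cannot be told apart here.

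**Figure D1:**
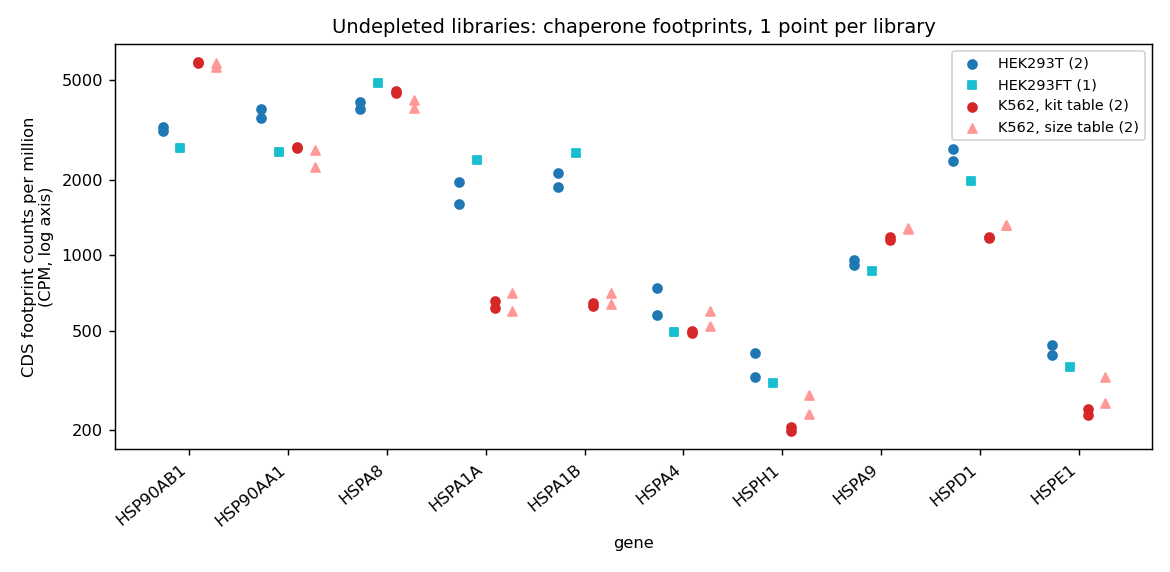
CDS footprint CPM (log axis) of the 10 chaperone genes in the 7 undepleted libraries, 1 point per library, coloured by cell line and table. HSP90AB1 lies higher in K562 than in either HEK line, whereas HSPA1A, HSPA1B, HSPD1, HSPH1 and HSPE1 lie lower.

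The comparison of cell lines used the undepleted libraries. Relative to HEK293T, K562 had more footprints on the constitutive HSP90AB1, HSPA8 and HSPA9 and fewer on all 4 inducible genes and on the mitochondrial HSPD1 and HSPE1. In all, 3 of the 10 members were higher and 6 lower in K562 by edgeR's quasi-likelihood test at a Benjamini-Hochberg adjusted p under 0.05, where 45.5% of the 5551 genes tested were called (22.5% higher and 23% lower). With so high a background, a call by itself sets no member apart. The median log2 fold change was −1.06 over the 4 inducible and 0.00 over the 6 constitutive members, against −0.01 over all genes tested. The inducible median counts HSPA1A and HSPA1B separately, although most footprints cannot tell them apart. With these copies summed as 1 gene, 3 of 9 members were higher and 5 lower, where 45.4% of genes were called. Scaling by total counts moved the median of all genes to −0.16 and changed no direction among the members, but it also called HSPA4. Cell line, fragment size range and library series change together between these tables and cannot be told apart by this test.

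HSP90AA1 and HSP90AB1 are related cytosolic chaperones of kinases, steroid receptors and many other clients. No 28-base window of either CDS occurs in the other. HSP90AB1, the constitutive form, was at 3241 and 3141 CPM in the undepleted HEK293T libraries and at 5873 and 5898 CPM in those of the K562 kit table. The groups did not overlap, and the log2 fold change was 0.999 ± 0.05 (SE, adjusted p = 5.24e-71). By mean CPM it ranked 13 among all CDS in HEK293T and 2 in the K562 kit table. Per CDS length it ranked 146 and 86.

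HSP90AA1, the inducible form, was at 3524 and 3838 CPM in HEK293T and at 2714 and 2673 CPM in K562. It fell by 0.34 ± 0.06 on the log2 scale (SE, adjusted p = 3.01e-08). Without the second HEK293T library the fall was no longer called (−0.14, adjusted p = 0.162), and without the size table in the fit it was −0.20 (adjusted p = 0.00145). The undepleted size-table libraries of K562 lay on the same side, with 5892 and 5677 CPM for HSP90AB1 and 2639 and 2262 CPM for HSP90AA1.

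Among the HSP70 proteins, HSPA8, the constitutive cognate protein that also uncoats clathrin vesicles, was at 3833 and 4092 CPM in HEK293T and at 4449 and 4545 CPM in K562. It was higher by 0.29 ± 0.05 (log2, SE, adjusted p = 4.49e-07), and the call was lost with the 20 to 34 nt size-table library as the K562 side (0.18, adjusted p = 0.0703). HSPA1A, a stress-inducible HSP70, was at 1608 and 1968 CPM in HEK293T and at 617 and 656 CPM in K562. HSPA1B, its copy, was at 2125 and 1877 CPM in HEK293T and at 624 and 647 CPM in K562. The groups were far apart for both copies.

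HSPA1B had the largest fold change among the members, −1.53 ± 0.09 (log2, SE, adjusted p = 1.49e-66), and HSPA1A followed at −1.39 ± 0.09 (adjusted p = 1.46e-52). Summed as 1 gene, the pair was at 3733 and 3845 CPM in HEK293T and at 1242 and 1303 CPM in K562, a log2 fold change of −1.46 ± 0.06 (adjusted p = 1.93e-109). The pair reached at most 1409 CPM in any of the 16 K562 libraries and never went below 2595 CPM in the 8 HEK293T libraries.

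HSPA4 and HSPH1 belong to the HSP110 family, which exchanges nucleotides on HSP70 and holds unfolded proteins. HSPA4 was at 742 and 580 CPM in HEK293T and at 500 and 489 CPM in K562. It did not pass the test, at −0.28 ± 0.13 (log2, SE, adjusted p = 0.0548). HSPH1, the inducible relative, was at 408 and 326 CPM in HEK293T and at 207 and 199 CPM in K562, and fell by 0.72 ± 0.18 (adjusted p = 1.84e-04). That call rested on the first HEK293T library, without which the adjusted p was 0.133, and was lost with the size-table library as the K562 side (adjusted p = 0.119).

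HSPA9 is the HSP70 of the mitochondrial matrix, and HSPD1 and HSPE1 form the chaperonin and its lid. HSPA9 was at 958 and 919 CPM in HEK293T and at 1149 and 1188 CPM in K562, higher by 0.43 ± 0.10 (log2, SE, adjusted p = 5.89e-05). HSPD1 went the other way, from 2391 and 2659 CPM to 1177 and 1181 CPM, and fell by 0.99 ± 0.07 (adjusted p = 4.99e-40). HSPE1 was at 400 and 437 CPM in HEK293T and at 244 and 231 CPM in K562, and fell by 0.71 ± 0.16 (adjusted p = 6.80e-05).

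No mitochondrial member overlapped between the undepleted groups. The HSPE1 call was lost without the second HEK293T library (adjusted p = 0.102) and with the size-table library as the K562 side (adjusted p = 0.443). The ratio of HSPE1 to HSPD1 per CDS length in undepleted libraries was 0.924 ± 0.012 (SD, n = 2) in HEK293T, 1.12 ± 0.048 (SD, n = 2) in the K562 kit table, 1.38 and 1.08 in the 20 to 34 and 20 to 60 nt libraries of the K562 size table and 1.01 in HEK293FT. With NEBNext it was 1.49 and 1.31 in HEK293T and 0.686 and 0.831 in K562.

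Across every library regardless of kit, the ranges of the 16 K562 and 8 HEK293T libraries did not overlap for 7 of the 10 members: HSP90AB1 was higher in K562, and HSP90AA1, HSPA1A, HSPA1B, HSPH1, HSPD1 and HSPE1 were lower. Of 8892 genes averaging 10 or more counts, 13.9% had ranges that did not overlap. This share takes in genes with far fewer counts than the members, so it is not a background matched by level. HSPA1A and HSPA1B share most footprints and are not separate observations. HSPA8, HSPA4 and HSPA9 had overlapping ranges. HSPA8 spanned 3803 to 4297 CPM in HEK293T and 3863 to 4613 CPM in K562.

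Ratios within a library remove its depth from the comparison. Per CDS length, the inducible HSP90AA1 stood at 1.14 ± 0.094 times the constitutive HSP90AB1 in undepleted HEK293T libraries (SD, n = 2) and at 0.453 ± 0.0063 times in the K562 kit table (SD, n = 2). The HSPA1A and HSPA1B sum stood at 0.964 ± 0.025 times HSPA8 in HEK293T and at 0.285 ± 0.0055 times in K562. HSPH1 stood at 0.545 ± 0.0078 times HSPA4 in HEK293T and at 0.401 ± 0.0054 times in K562. That HEK293T ratio rests on 49 and 50 HSPH1 counts. Its exact 95% counting intervals, 0.372 to 0.772 and 0.381 to 0.786, took in the K562 values.

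All 3 inducible to constitutive ratios were lower in K562, by 2.52-fold for HSP90, 3.38-fold for HSP70 and 1.36-fold for HSP110. The library values of none overlapped between the groups, although the counting intervals of HSP110 did. An exact two-sided permutation test of 2 against 2 libraries cannot go below p = 0.333, the value each ratio gave. With Ribo-Zero Gold, RiboCop, FastSelect and riboPools libraries added and the RiboCop pair counted as 1 sample, 8 K562 and 5 HEK293T samples gave an exact permutation p of 0.00155 for HSP90 and for HSP70 and 0.00777 for HSP110, whose ranges then overlapped. Adjusted over the 3 ratios by Benjamini-Hochberg these were 0.00233, 0.00233 and 0.00777. Whether the added libraries of a line come from other lysates than its undepleted ones is not stated in the labels.

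**Figure D2:**
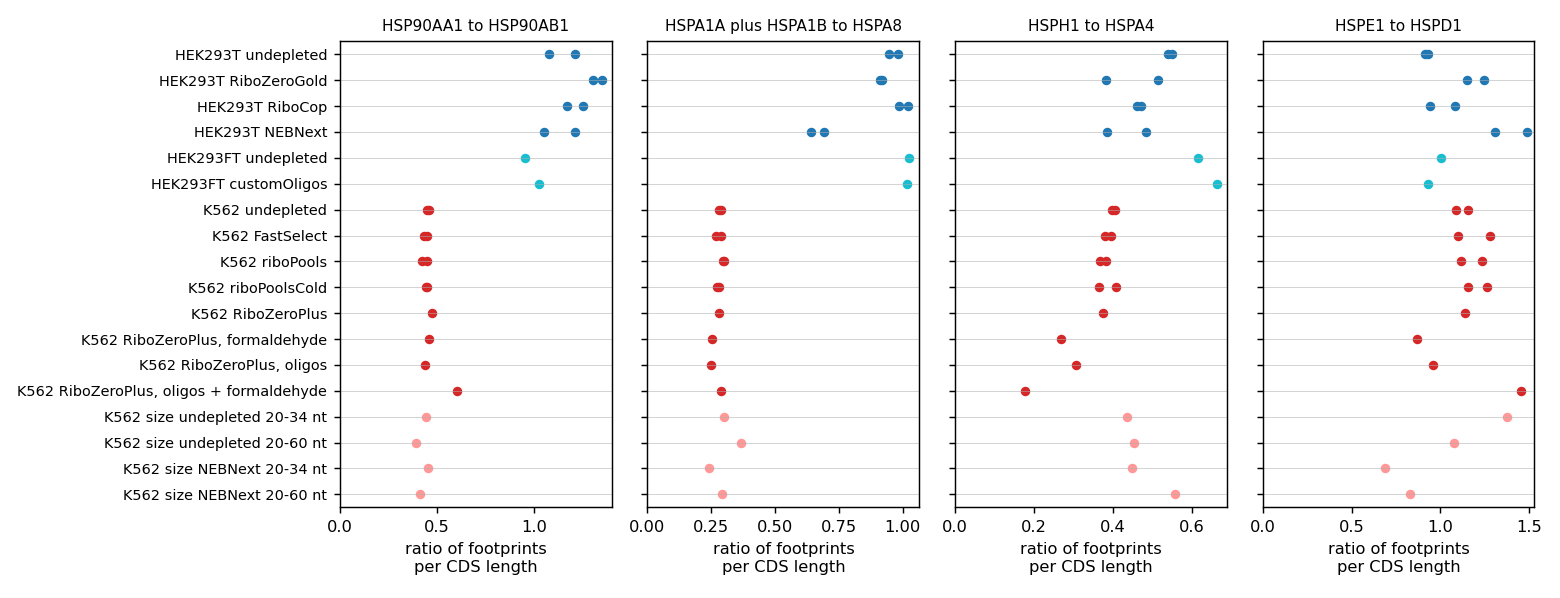
Ratios of footprints per CDS length for 4 chaperone pairs, 1 point per library, by cell line and depletion. HSP90AA1 to HSP90AB1 lay between 1.05 and 1.35 in HEK293T and between 0.394 and 0.603 in K562, and HSPA1A plus HSPA1B to HSPA8 was lower with NEBNext than with the other HEK293T preparations.

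Between HEK293FT and HEK293T, 5 members were called, all of them also called between K562 and HEK293T. HSPA8, HSP90AA1 and HSPD1 lay on the same side of HEK293T as in K562, and HSPA1A and HSPA1B on the other. Most footprints cannot tell HSPA1A from HSPA1B, so their calls are not separate observations. Both comparisons share the HEK293T libraries. Of the 10 members, 3 were higher and 2 lower in the single undepleted HEK293FT library (edgeR, adjusted p under 0.05), where 8.02% of 5551 genes were called (5.12% higher and 2.9% lower). HSPA1A was at 2401 CPM and HSPA1B at 2564 CPM, above both HEK293T libraries, with log2 fold changes of 0.54 ± 0.08 (SE, adjusted p = 4.16e-10) and 0.50 ± 0.08 (adjusted p = 2.66e-09). Summed, HSPA1A and HSPA1B were at 4966 CPM, higher by 0.52 ± 0.06 (adjusted p = 4.13e-17). HSPA8 was at 4875 CPM, higher by 0.42 ± 0.06 (adjusted p = 3.23e-11).

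Because HSPA8 and the HSPA1 pair were higher together, their ratio per length was 1.03 in HEK293FT, close to that in HEK293T. HSP90AA1 was at 2596 CPM and fell by 0.38 ± 0.06 (adjusted p = 2.86e-07), a call lost without the second HEK293T library (adjusted p = 0.0502). HSPD1 was at 1982 CPM and fell by 0.23 ± 0.07 (adjusted p = 0.0309), which did not pass with DESeq2 (adjusted p = 0.0631) or without the first (0.0708) or the second (0.805) HEK293T library. The spread of the lone HEK293FT library is taken from the other groups.

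The partners of these chaperones were followed in lists by role. Between K562 and HEK293T, 4 of 12 HSP90 co-chaperones were called, 2 in each direction. No list below is set apart by its count, since 45.5% of all genes were called in this comparison. FKBP4, an immunophilin of steroid receptor complexes, fell by 1.10 ± 0.15 (log2, SE, adjusted p = 7.89e-12), whereas its relative FKBP5 was higher by 1.09 ± 0.29 (adjusted p = 6.75e-04). SUGT1, which links HSP90 to kinetochore assembly, was higher by 0.97 ± 0.34 (adjusted p = 0.0126). The list's median log2 fold change was −0.09, against −0.01 over all genes tested.

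Of 10 J-domain proteins tested, 2 were higher and 1 lower. DNAJC21 rose by 0.89 ± 0.38 (adjusted p = 0.0448), DNAJC9, which also binds histones, rose by 0.85 ± 0.29 (adjusted p = 0.00996), and DNAJA1, a cytosolic HSP70 partner, fell by 0.33 ± 0.14 (adjusted p = 0.0462). Of 7 nucleotide exchange and HSP70 co-factors tested, BAG6 was higher by 0.87 ± 0.15 (adjusted p = 1.15e-07) and ST13 lower by −0.41 ± 0.14 (adjusted p = 0.0103). HSPA4L, an HSP110 relative of HSPA4, was the single call among 5 other HSP70 and HSP110 genes tested, at −2.28 ± 0.31 (adjusted p = 1.40e-12).

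Among 9 mitochondrial partners, 1 was higher and 3 were lower. CLPB, a mitochondrial disaggregase, fell by 0.99 ± 0.29 (adjusted p = 0.00196), and CLPP, the proteolytic subunit of the Clp protease, fell by 0.87 ± 0.27 (adjusted p = 0.0044). LONP1, another matrix protease, was higher by 0.90 ± 0.22 (adjusted p = 1.96e-04). Both small heat-shock proteins tested, of 4 listed, were higher: HSPB1 by 2.66 ± 0.27 (adjusted p = 4.48e-21), from 54.9 ± 42.2 to 343 ± 7.5 CPM (SD, n = 2 each; 3 and 13 counts in HEK293T), and HSPB11 by 1.30 ± 0.36 (adjusted p = 0.00116). HSPB11 is better known as a subunit of intraflagellar transport. None of the 3 genes listed as heat shock factors and their regulator, HSF1, HSF2 and HSBP1, was called (edgeR), and HSF1 was at 55.2 ± 4.4 CPM in HEK293T and 50.6 ± 8.0 CPM in K562 (SD, n = 2 each).

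HSPB1, which heat shock factor 1 also raises under stress, was thus higher in K562 while the 4 inducible members were lower. Between HEK293FT and HEK293T, where 8.02% of all genes were called, the calls were 1 of 5 other HSP70 and HSP110 genes, 2 of 10 J-domain proteins, 1 of 7 HSP70 co-factors and 1 of 2 small heat-shock proteins. None of the 12 HSP90 co-chaperones, 9 mitochondrial partners and 3 factors was called. HSPB1 was higher by 1.27 ± 0.36 (adjusted p = 0.00808), and DNAJB1, the inducible J-domain partner of HSPA1A, by 0.96 ± 0.26 (adjusted p = 0.00487). DNAJB6, another J-domain protein, fell by 0.79 ± 0.26 (adjusted p = 0.0359), and HSPBP1, a nucleotide exchange factor of HSP70, was higher by 1.17 ± 0.33 (adjusted p = 0.00999). HSPA1L, which shares 7.11% of the 28-base windows of HSPA1A, was higher by 0.91 ± 0.30 (adjusted p = 0.036).

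**Figure D3:**
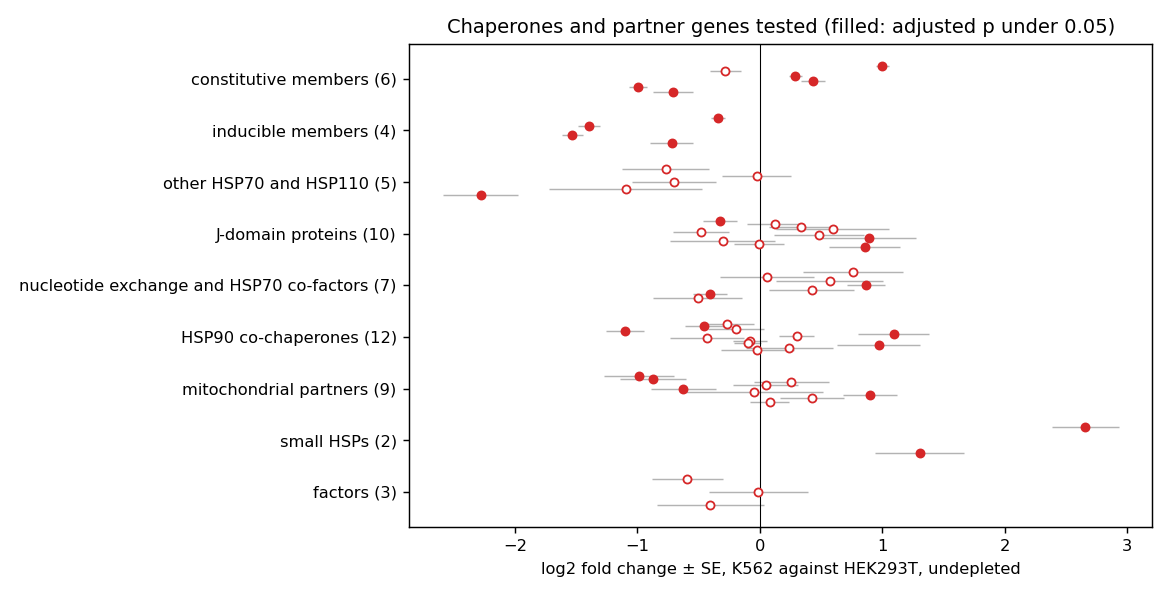
Log2 fold change (± SE) between undepleted K562 and HEK293T libraries for the chaperones and their partners, grouped by role with the number tested. Filled points passed an adjusted p of 0.05 in edgeR; all 4 inducible members lie left of 0 and both small heat-shock proteins right of it.

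The second question was whether depletion kits change what is read from these genes. In HEK293T, NEBNext, which hybridises DNA probes and digests the RNA of the hybrids with RNase H, gave fewer footprints on HSPA1A, HSPA1B, HSP90AA1 and HSP90AB1 and more on HSPE1. In edgeR's test 1 member was higher and 4 lower, against 3.24% of 4410 genes called (1.5% higher and 1.75% lower). With HSPA1A and HSPA1B summed as 1 gene, 1 of 9 members was higher and 3 lower, again against 3.24% of genes. No member was called with Ribo-Zero Gold or RiboCop, which capture ribosomal RNA on beads. The 3 kits were compared with the same undepleted libraries.

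HSPA1A was at 1608 and 1968 CPM undepleted and at 1200 and 1373 CPM with NEBNext, a log2 fold change of −0.46 ± 0.11 (SE, adjusted p = 0.00127). HSPA1B was at 2125 and 1877 CPM undepleted and at 1395 and 1576 CPM with NEBNext, a change of −0.39 ± 0.10 (adjusted p = 0.00699). Neither copy overlapped between the groups. HSPA1A lost the call without the second undepleted (adjusted p = 0.449) or first NEBNext library (0.0593), and HSPA1B without the first undepleted (0.205) or first NEBNext library (0.142). The sum of HSPA1A and HSPA1B, 3733 and 3845 CPM against 2595 and 2949 CPM, fell by 0.42 ± 0.08 (adjusted p = 1.45e-05). With Ribo-Zero Gold the sum was at 3626 and 3770 CPM and with RiboCop at 3860 and 3890 CPM, both near the undepleted level.

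HSP90AA1 was at 3023 and 2944 CPM with NEBNext, below both undepleted libraries, and fell by 0.29 ± 0.08 (adjusted p = 0.0106), a call lost without the second undepleted (0.378) or second NEBNext library (0.176). HSP90AB1 was at 2843 and 2402 CPM and fell by 0.28 ± 0.08 (adjusted p = 0.0283). This last call was lost with DESeq2 (adjusted p = 0.151), without either undepleted library (0.163 and 0.146), without the second NEBNext library (0.62) and with the RiboCop libraries summed as 1 (adjusted p = 0.0544). Their ratio per length was 1.13 ± 0.11 with NEBNext against 1.14 ± 0.094 undepleted (SD, n = 2 each), a difference smaller than the spread.

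The HSP70 ratio did move with the kit. The HSPA1A and HSPA1B sum stood at 0.667 ± 0.035 times HSPA8 per length with NEBNext (SD, n = 2), below all 6 other HEK293T libraries, which ranged from 0.912 to 1.02. HSPA8 itself was at 4073 and 4297 CPM with NEBNext and did not pass the test (0.10 ± 0.07, adjusted p = 0.596). The 4 inducible genes together held 0.61% ± 0.022 of counts with NEBNext, against 0.784% ± 0.024 undepleted (SD, n = 2 each).

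HSPE1 was at 400 and 437 CPM undepleted, 435 and 492 CPM with RiboCop, 552 and 586 CPM with Ribo-Zero Gold and 758 and 666 CPM with NEBNext. The NEBNext libraries were the highest and overlapped no other group. These levels rest on 48 and 67 counts undepleted and 101 and 134 with NEBNext. The log2 fold change was 0.76 ± 0.17 (SE, adjusted p = 7.45e-04) with NEBNext, and 0.44 ± 0.16 with Ribo-Zero Gold, where the unadjusted p of 0.00565 came to 0.603 after adjustment. Summed with the row of HSPE1-MOB4, HSPE1 was still higher with NEBNext, by 0.64 ± 0.15 (adjusted p = 0.00166). The HSPE1 call held without each of the NEBNext and undepleted libraries in turn, with an adjusted p of at most 0.045.

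HSPD1, HSPA9, HSPH1 and HSPA4 did not pass the test with NEBNext in HEK293T. The nearest to it was HSPA4, at 668 and 925 CPM against 742 and 580 CPM, with overlapping groups and 0.35 ± 0.15 (adjusted p = 0.218). For Ribo-Zero Gold, 1 member had an unadjusted p under 0.05 in edgeR and 1 in DESeq2, none was called by either tool, and 0.068% of genes were called. For RiboCop no member had an unadjusted p under 0.05 by either tool, none was called, and 0% of genes were called. The largest RiboCop change was 0.16 ± 0.18, for HSPE1.

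Among the partners, NEBNext in HEK293T moved 2 of 12 HSP90 co-chaperones, both lower: CDC37, which brings kinases to HSP90, by −0.90 ± 0.23 (adjusted p = 0.00529), and NUDC, a dynein-linked HSP90 partner, by −0.89 ± 0.22 (adjusted p = 0.00439). No gene was called among 10 J-domain proteins, 7 co-factors, 4 other HSP70 and HSP110 genes, 8 mitochondrial partners, 2 small heat-shock proteins and 3 factors tested.

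In K562 NEBNext was compared with the 2 size-table libraries titled undepleted, whose labels conflict. Depletion and size range entered the fit together. No member was called, against 2.72% of 3715 genes (1.75% higher and 0.969% lower), with 1 unadjusted p under 0.05 in edgeR and none in DESeq2. HSPE1 had the largest change and the opposite sign to HEK293T. It was at 326 CPM (20 to 34 nt) and 256 CPM (20 to 60 nt) undepleted and at 152 and 220 CPM with NEBNext, a log2 fold change of −0.79 ± 0.26 (SE, adjusted p = 0.076).

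That comparison holds few counts, 62 and 12 undepleted against 67 and 44 with NEBNext. The NEBNext libraries lay lower at each size range, although the exact 95% binomial interval of the 12 counts, 132 to 447 CPM, takes in both. The test of the difference between the cell lines gave −1.54 ± 0.31 for HSPE1 (log2, SE, adjusted p = 0.00503), with 0.296% of 4736 genes called. HSPE1 was the single member called in it by edgeR and none was called by DESeq2, where its unadjusted p of 0.00257 came to 0.9997 after adjustment. No other fit of this difference is free of the libraries with conflicting labels.

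For HSPA1A and HSPA1B summed, the K562 level was at 1241 and 1409 CPM undepleted and at 1033 and 1287 CPM with NEBNext, −0.16 ± 0.16 (adjusted p = 0.731). The difference from HEK293T, 0.29 ± 0.17, did not pass the test (adjusted p = 0.722), so the 2 lines are not shown to differ in it. Size range made no called difference either. Between 20 to 60 and 20 to 34 nt no member was called in edgeR or DESeq2, none had an unadjusted p under 0.05 by either, and 0.162% of genes were called, 0.0808% in each direction. HSPA1B had the largest change, 0.33 ± 0.19 (adjusted p = 0.838), and HSPA1A and HSPA1B summed were at 0.26 ± 0.16 (adjusted p = 0.861).

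**Figure D4:**
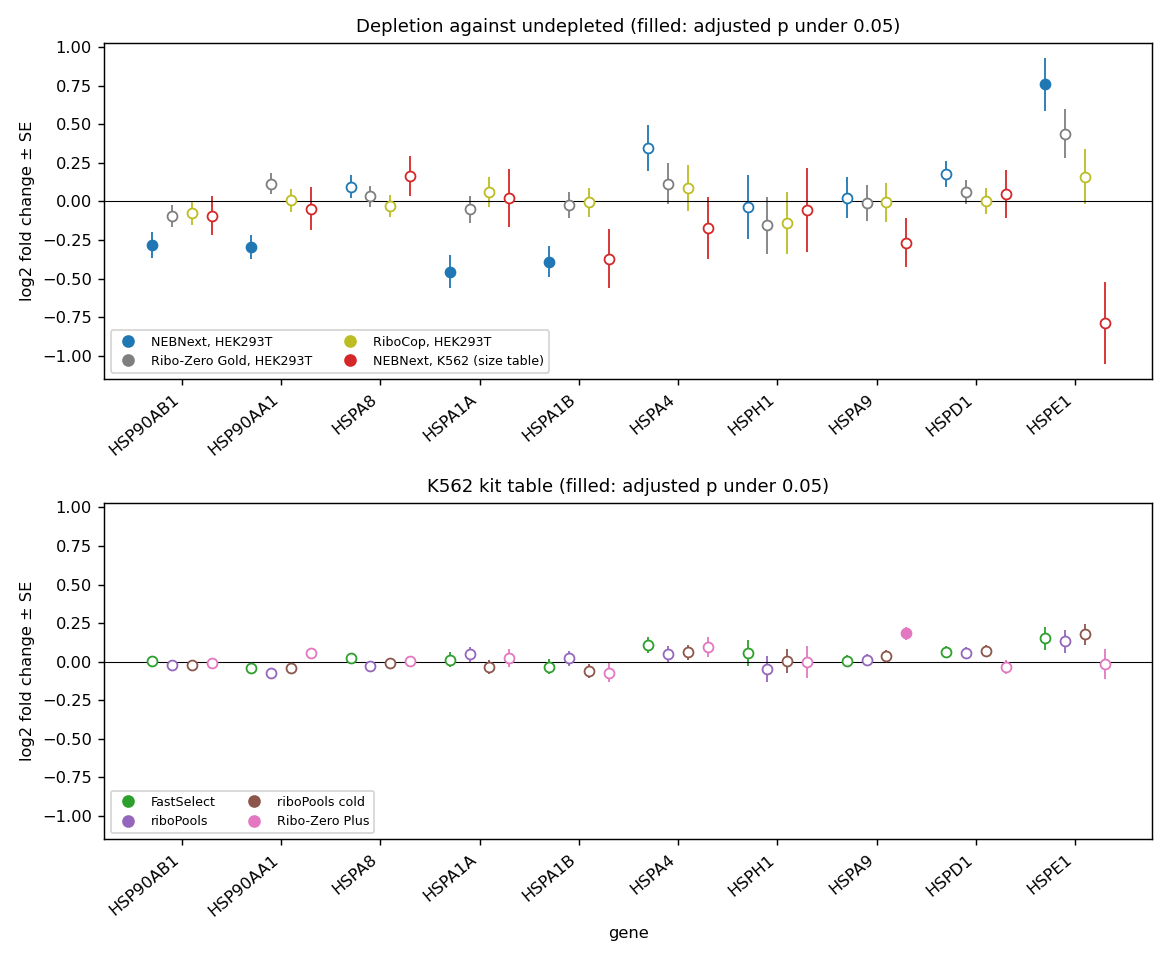
Log2 fold change (± SE) of each chaperone gene with a depletion kit against undepleted libraries, for HEK293T and the K562 size table (top) and the K562 kit table (bottom), on the same axis. Filled points passed an adjusted p of 0.05 in edgeR. The 4 Ribo-Zero Plus libraries averaged are not drawn. The bottom panel stays within 0.25 of 0, whereas NEBNext in the top panel puts HSPE1 at 0.76 in HEK293T and to −0.79 in K562.

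The K562 kit table gave the most precise values, with 1031889 to 5795774 counts in its undepleted, FastSelect and riboPools libraries. No member was called with FastSelect, which blocks reverse transcription of ribosomal RNA (0.0198% of 10078 genes called, 0.00992% in each direction). The same held for riboPools (0.0794%, with 0.0695% higher and 0.00992% lower) and for riboPools with cold elution (0.258%, with 0.159% higher and 0.0992% lower). In edgeR 2, 1 and 2 members had an unadjusted p under 0.05, and in DESeq2 0, 1 and 0, with none called. HSPE1 showed the largest change under each of these kits, at 0.15 ± 0.08, 0.13 ± 0.08 and 0.18 ± 0.07 (log2, SE, adjusted p = 0.882, 0.867 and 0.668). It was at 244 and 231 CPM undepleted, 249 and 278 CPM with FastSelect, 250 and 270 CPM with riboPools and 265 and 274 CPM with the cold elution, where all 6 depleted libraries lay above the undepleted ones.

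The HSPA1 pair in the same 8 libraries stayed between 1221 and 1318 CPM, and HSP90AB1 between 5726 and 5932 CPM. HSP90AB1 had a standard error of 0.02 in each of these comparisons.

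Ribo-Zero Plus, which digests probe-bound RNA enzymatically, was tested with 1 library without additions. It called 1 of 10 members where 20.6% of 10078 genes were called (8.95% higher and 11.7% lower). HSPA9 was at 1310 CPM against 1149 and 1188 CPM undepleted, higher by 0.18 ± 0.04 (SE, adjusted p = 0.00128). The spread of this lone library was taken from the replicated kits, and with all 12 libraries in the fit HSPA9 was not called (0.20, adjusted p = 0.0769). The other 9 members lay within 0.1 of no change on the log2 scale.

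Averaged over the 4 Ribo-Zero Plus libraries, 4 members were lower and none higher, where 14.9% of 9628 genes were called (1.49% higher and 13.4% lower). The median of all genes lay at −0.43 in this fit, at −0.33 with total count scaling and at −0.27 with DESeq2. What lowers this median was not tested. The changes of the called members against undepleted lay above the −0.43 of this fit for HSP90AB1 (−0.28 ± 0.03), HSPA8 (−0.15 ± 0.05) and HSPD1 (−0.24 ± 0.07). That of HSPH1 (−0.58 ± 0.18) lay below it. In the libraries themselves HSP90AB1 was at 5786, 5225, 5933 and 4311 CPM without additions, with formaldehyde, with oligos and with both, and the last was the lowest of all 12. HSPH1 was at 200, 146, 200 and 84.8 CPM in the same order.

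No member was called with DESeq2, or in a fit restricted to the undepleted and the 4 Ribo-Zero Plus libraries (3 and 1 with an unadjusted p under 0.05). Without the library that had no additions, or without the one with both, 7 members were called, where 35.4 and 34.8% of genes were called and the median of all genes lay at −2.01 and −2.05. Without the first or the second undepleted library 1 member was called, where 1.72 and 1.57% of genes were. The K562 marker sum was 5979 CPM with formaldehyde, 9187 CPM with oligos and 3639 CPM with both, against 10968 CPM without additions, and its part in these values was not tested.

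In HEK293FT no member differed by more than 1.5-fold between custom oligos and no depletion. With 1 library on each side there is no replicate check. Of 5225 genes averaging 100 or more counts, 1.3% passed 1.5-fold. The HSPA1 pair was at 4966 CPM undepleted and 4992 CPM with oligos. The largest log2 ratio was −0.08 for HSPE1 (exact 95% interval −0.25 to 0.10, counting error only), from 357 to 339 CPM. For HSP90AA1, at 2596 and 2728 CPM, the interval of 0.01 to 0.14 lay just above 0, and the 9 other intervals took in 0.

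The genes whose levels ran most like the HSPA1 pair were histone genes. Over the 14 libraries with more than 300000 counts, log2 CPM of HIST2H2BF had a Pearson r of 0.997 with that of the pair, HIST2H4A 0.995 and HIST2H4B 0.994, among 265 genes that averaged 100 or more counts in every table. These libraries fall into K562 and HEK clusters, so r mostly records the difference between lines and is given as a description.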

How the data were processed

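CDS counts per transcript were deposited by the authors as raw counts in 4 tables. The submitters' processing notes name CASAVA 1.8, STAR and GRCh38 (hg38); how reads that fit several places were counted is not given in the sources used here. CPM is the count over the library's CDS total. Of the identifiers, 97.5% matched GENCODE 29 with version. Tests were edgeR 4.0.16 quasi-likelihood fits in R 4.3.3 after TMM scaling and filterByExpr (minimum count 10), with Benjamini-Hochberg adjustment over all genes of a comparison. DESeq2 1.42.0, total count scaling, no filter and leaving out each library were alternatives. Fits were checked on simulated counts. All 10 members passed the filter in every comparison. The text names each called member, the member with the largest change per comparison, and at most 3 called genes per partner list. Per-value intervals are exact 95% intervals for counting error only. The replicate numbers were not used to pair libraries in the main fits, and input shared by libraries of a number is not excluded. The members and gene lists were chosen with earlier results of these data known. Promoter sequences are from RefSeq (GRCh38.p14).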

Additional observations from a re-analysis of the deposited data

Results flagged for a closer look

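HSPE1, the lid of the mitochondrial chaperonin, had NEBNext changes of opposite sign in the 2 cell lines: 0.76 ± 0.17 in HEK293T (log2, SE, edgeR adjusted p = 7.45e-04) and −0.79 ± 0.26 in K562, which was not called (adjusted p = 0.076). The test of the difference gave −1.54 (log2, K562 minus HEK293T; edgeR adjusted p = 0.00503), with 0.9997 as the adjusted p in DESeq2. The K562 side rests on 62 and 12 undepleted counts and on libraries whose title and label conflict. HSPD1, its partner in the chaperonin, gave −0.11 ± 0.17 in the same test (adjusted p = 0.945).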

How the results depend on the processing

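No called result changed direction in the alternatives run; 48 values of single genes lost their call and 254 kept their side of the threshold. Of the counts of members and the ratios, 126 values stayed close, 13 counts moved and 3 ratios newly passed the threshold. Leaving out 1 library gave 2 to 4 called members for NEBNext in HEK293T (5 with all), where 1.24 to 2.71% of genes were called, 3 to 4 for HEK293FT against HEK293T (5 with all; 2.55 to 3.02% of genes), 7 to 9 for K562 against HEK293T (9 with all, 6 with the size-table library as the K562 side; 24.2 to 39.5% of genes) and 1 to 7 for the 4 Ribo-Zero Plus libraries (4 with all; 1.57 to 35.4% of genes). Without the first NEBNext library HSPA4 was newly called higher in HEK293T (adjusted p = 0.0444). For the 4 Ribo-Zero Plus libraries, DESeq2 and a fit of only both groups called 0 members and total count scaling 1. The plain Ribo-Zero Plus call of HSPA9 was lost with all 12 libraries in the fit, which left 0 called. The NEBNext difference between lines had 0 called in DESeq2. With the bead and blocking kits included, the log2 differences of the 3 ratios, K562 minus HEK293T, were −1.47 for HSP90, −1.74 for HSP70 and −0.33 for HSP110, with exact permutation p of 0.00155, 0.00155 and 0.00777, and all 3 then passed 0.05. Kit libraries of a line may share a lysate, which the labels do not state. Line, fragment size and library series also change together, so these p-values do not test the line alone. With the replicate number as a block, NEBNext in HEK293T still called 5 members and 153 genes against 143; libraries with the same number deviated together little (r from 0.04 to 0.11 in HEK293T and from −0.05 to 0.01 in the K562 kit table), and no call of a member changed. Genes called in NEBNext against undepleted HEK293T numbered 58 with DESeq2. The summed copies, the fits without the size table and the summed RiboCop libraries were chosen after seeing the data. Depth limits HSPE1 and HSPH1 most, with 48 to 134 and 44 to 73 counts in the HEK293T undepleted and NEBNext libraries.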
